A study of Homo sapiens with 14 samples.

Results

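The genes described here are 35 genes that carry glucose from the medium to the end of the TCA cycle: 4 transporters of glucose and lactate, 18 genes of glycolysis and its lactate branch, 6 genes of pyruvate entry into mitochondria and 7 genes of the TCA cycle. They were taken from a fixed list of symbols, and all 35 were found among the 26485 genes of the count table. All 35 also passed the filter on low counts that left 16149 genes to test, and the lowest count of any of them in any library was 60, for MPC1.

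Cells take up glucose through carriers of the SLC2A family, trap it inside as glucose-6-phosphate by hexokinase, commit it to glycolysis at phosphofructokinase and split it into triose phosphates. The lower steps yield ATP and pyruvate, which is either reduced to lactate by lactate dehydrogenase and exported by SLC16A carriers or imported into mitochondria, turned into acetyl-CoA by pyruvate dehydrogenase and oxidised in the TCA cycle. Human pluripotent stem cells are known for rapid glycolysis and lactate release, and many glycolytic genes are known targets of hypoxia-inducible factor.

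Polyadenylated RNA of bulk cultures of the human embryonic stem cell line WA01 (H1) was sequenced in 7 groups of 2 libraries. In 6 of the groups the cells had been induced towards neural crest for 5 days with CHIR99021, which blocks GSK3 and so switches on canonical Wnt signaling, given from hour 0 to hour 72. The high Wnt + TGFB, high Wnt + SB4 and high Wnt groups received 10 µM CHIR99021, and the low Wnt + TGFB, low Wnt + SB4 and low Wnt groups received 3 µM. TGFB stands for recombinant human TGF-beta 1 at 5 ng/µL, the unit the labels give, and SB4 for SB431542 at 10 µM, which inhibits the receptor kinases of TGF-beta, activin and nodal. Both additives were present from hour 0 to hour 120. The remaining group, hESC, was uninduced WA01. The labels name no genetic change in any group and do not say whether the replicates were separate cultures, so each p-value measures no more than how far these libraries differed, and that may be technical.

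Gene counts summed to between 10879287 and 19106827 per library. The 35 genes took between 1.25% and 1.54% of all counts in the 12 induced libraries, against 1.94% and 2.15% in the hESC libraries. The labelled cell type was checked against markers, in counts-per-million (CPM) after TMM scaling. Summed levels of 9 neural crest markers were 284 to 375 CPM in the 3 high Wnt groups. They were 67.4 to 119 CPM in the 3 low Wnt groups, and 136 and 128 CPM in hESC. Single markers went both ways and the sums follow the abundant ones. By the test described below, 6 of the 9 rose and 2 fell in low Wnt against hESC. In high Wnt against hESC 4 rose and 3 fell, and TFAP2B was at 0 in both high Wnt libraries. SOX10, a defining crest marker, did not exceed 6.50 CPM in any induced library, against 4.74 and 6.53 CPM in hESC. Summed levels of 8 pluripotency markers were 1454 and 1580 CPM in low Wnt + TGFB, between 287 and 621 CPM in the other induced libraries, and 4718 and 4888 CPM in hESC. For 6 neural progenitor markers they were highest in low Wnt + SB4 (538 and 605 CPM) and low Wnt (329 and 310.5 CPM), against 62.7 and 85.2 CPM in hESC. Sums of 6 mesoderm markers were 124 to 458 CPM in the 3 high Wnt groups, at most 8.89 CPM in the 3 low Wnt groups, and 10.4 and 9.76 CPM in hESC. For 5 endoderm markers they were 17.4 to 128 CPM in the induced libraries and 2.29 and 3.90 CPM in hESC. All 5 rose in low Wnt + TGFB against hESC. In high Wnt only CXCR4 rose and 4 did not pass, and in low Wnt 2 rose and 1 fell. In bulk RNA, fewer cells of a type and less RNA per cell cannot be told apart, and the part that these other cell types had in the results below was not tested.

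Induction was accompanied by lower RNA of most of the 35 genes. Calls were made with edgeR's quasi-likelihood test at a p under 0.05 after Benjamini-Hochberg adjustment over all 16149 genes. In low Wnt against hESC, 25 of the 35 fell, 4 rose and 6 did not pass, with a median log2 fold change of -0.55. Of all genes tested, 71.4% were called in that comparison, 35.8% higher and 35.6% lower, with a median of 0.0040 over all genes. In high Wnt against hESC, 19 fell, 4 rose and 12 did not pass (median -0.35, and 0.0093 over all genes), where 72.4% of all genes were called, 36.3% higher and 36.1% lower. In low Wnt + TGFB against hESC, 24 fell, 3 rose and 8 did not pass (median -0.48, and 0.016 over all genes), where 63.1% of all genes were called, 31.4% higher and 31.8% lower. Scaling by library totals alone gave 6 higher and 22 lower in the last of these. The 3 comparisons share the hESC libraries. Of the members, 19 were called lower at both doses, and the group mean was highest in hESC for 22 of 35. Neither count was taken over all genes, so neither by itself sets the list apart.

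By step, both parts of glycolysis fell widely. In low Wnt against hESC 8 of the 10 enzyme genes between glucose and triose phosphate fell and 1 rose, and 7 of the 8 genes from GAPDH to lactate dehydrogenase fell and 1 rose. In high Wnt against hESC the counts were 6 lower and 1 higher of 10, and 5 lower and none higher of 8. Pyruvate entry had 4 of 6 lower in low Wnt and 2 of 6 in high Wnt, with none higher. The TCA cycle genes were divided, with 3 of 7 lower and 1 higher in low Wnt, and 3 lower and 2 higher in high Wnt. Of all genes, 35.6% were lower and 35.8% higher in low Wnt, and 36.1% and 36.3% in high Wnt. The TCA cycle genes that fell at either dose, and those of pyruvate entry in high Wnt, are thus near the share of all genes.

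Between the doses of CHIR99021 members went both ways, as did all genes. In high Wnt against low Wnt, 11 members rose, 7 fell and 17 did not pass (median 0.12, and -0.0069 over all genes), where 38.5% of all genes were called, 19.4% higher and 19.1% lower. The share of members lower is thus near that of all genes, and the share higher is above it. Upper quartile scaling gave 8 higher and 8 lower in place of 11 and 7. Without replicate 1 of high Wnt, 11 members in all were called in place of 18. Those that rose included 7 glycolytic enzymes and both subunits of the mitochondrial pyruvate carrier, and those that fell included both glucose transporters, HK2 and PFKP.

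**Figure D1:**
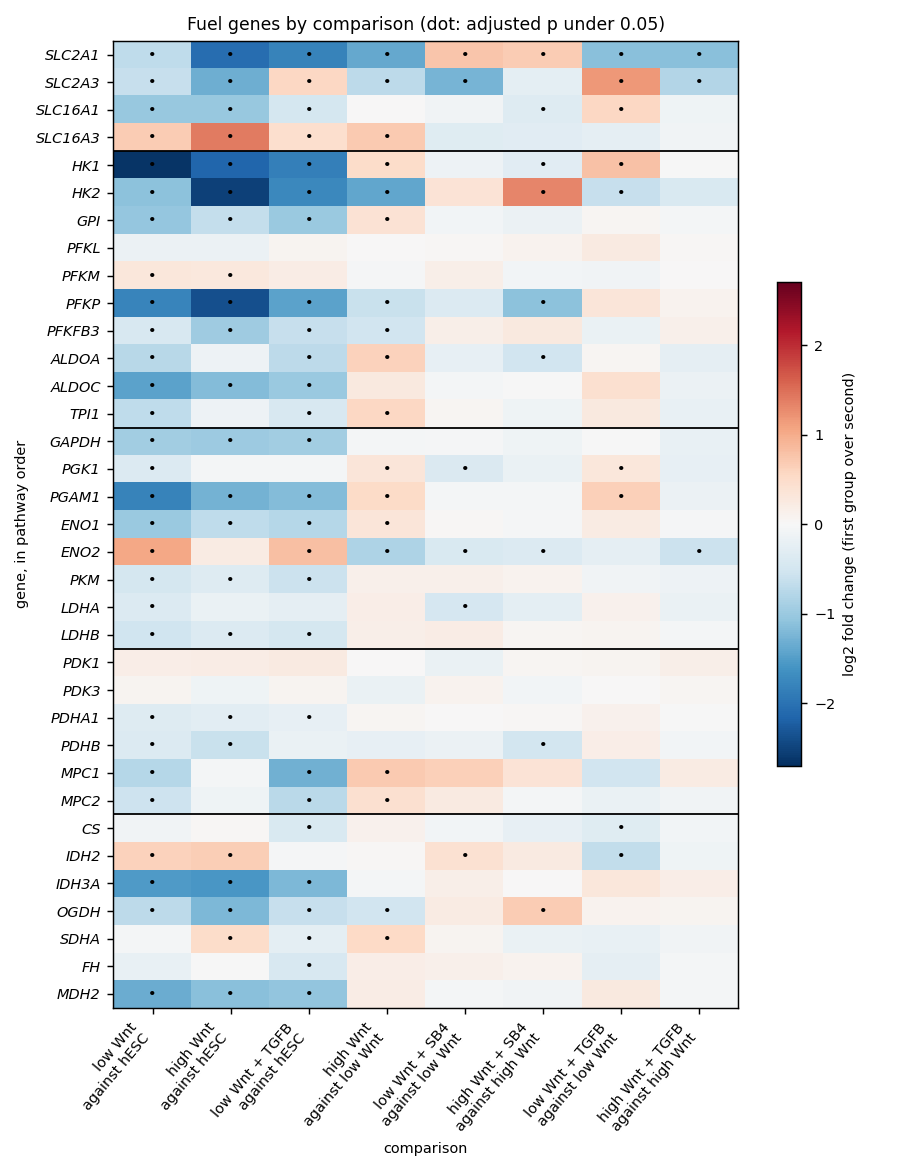
Log2 fold changes of the 35 genes (rows, in pathway order, with lines between transport, upper glycolysis, lower glycolysis, pyruvate entry and the TCA cycle) in 8 comparisons (columns), each the first-named group over the other. Blue is lower, red is higher, and a dot marks an adjusted p under 0.05. The 3 columns against hESC are mostly blue, with 25, 19 and 24 members lower, while the additive columns are pale except at the transporters and a few enzymes.

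The additives touched fewer members. In low Wnt + SB4 against low Wnt, 2 rose, 4 fell and 29 did not pass, where 11.2% of all genes were called (4.84% higher, 6.39% lower). In high Wnt + SB4 against high Wnt, 3 rose, 6 fell and 26 did not pass, where 21.5% of all genes were called (9.94% higher, 11.6% lower). In low Wnt + TGFB against low Wnt, 5 rose, 4 fell and 26 did not pass, where 26.0% of all genes were called (13.7% higher, 12.2% lower). In high Wnt + TGFB against high Wnt, none rose, 3 fell and 32 did not pass, where 7.25% of all genes were called (3.75% higher, 3.49% lower). At each dose the SB4 and TGFB comparisons share the libraries without additive. With TGFB at low dose the shares of members are near those of all genes. The shares lower are above those of all genes with SB4 at both doses and with TGFB at high dose, but rest on 4, 6 and 3 members. Counts this small do not by themselves set the list apart in any of the 4 comparisons. The members' median log2 fold change was 0.01 and -0.06 with SB4 and 0.07 and -0.08 with TGFB, at low and high dose in turn, and that of all genes was within 0.0055 of 0 in each. Some rest on 1 library: the count for SB4 at low dose was between 2 and 3 in place of 6 without any 1 of the 4 libraries compared, and that for SB4 at high dose was 5 in place of 9 without replicate 1 of high Wnt or replicate 2 of high Wnt + SB4. Scaling by library totals alone gave 11 higher and 3 lower for TGFB at low dose, and 4 higher and 3 lower for SB4 at high dose.

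The response to an additive differed between the doses for few members. For SB4 the difference was called for 3 of 35, 2 of them higher at high dose and 1 lower, where 6.07% of all genes were called (2.71% higher, 3.36% lower). For TGFB it was called for 6 of 35, 1 higher and 5 lower, where 11.8% of all genes were called (5.73% higher, 6.06% lower). Both shares of members are somewhat above those of all genes, but rest on 3 and 6 members and do not by themselves set the list apart. Markers of other cell types moved with the additives too. At high dose, mesoderm markers summed to 458 and 415 CPM with TGFB and 147 and 124 CPM with SB4, against 239 and 203 CPM without additive. Neural progenitor markers there summed to 14.3 and 15.2 CPM with TGFB and 103 and 119 CPM with SB4, against 22.1 and 21.7 CPM without additive, and their part in the members' results was not tested.

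In 3 of the 4 additive comparisons the 2 largest log2 fold changes of the list, in either direction, were those of the glucose transporters. SLC2A1 encodes GLUT1, the broadly expressed glucose carrier (chr1:42925375-42959176, minus strand, hg38). It had 58.2 and 54.3 CPM in high Wnt + TGFB, 207 and 187 CPM in high Wnt + SB4, and 133 and 111 CPM in high Wnt. At low dose there were 125 and 169 CPM in low Wnt + TGFB, 518 and 553 CPM in low Wnt + SB4, 293 and 347 CPM in low Wnt, against 466 and 557 CPM in hESC. At each dose the order was SB4, no additive, TGFB, and the libraries of these groups did not overlap. Across the 7 groups the mean in low Wnt + SB4 was 9.53 times that in high Wnt + TGFB.

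With SB4, SLC2A1 rose 1.67-fold at low dose (log2 fold change 0.74, SE 0.137, edgeR adjusted p = 0.00183) and 1.61-fold at high dose (0.69, SE 0.140, adjusted p = 0.00215). With TGFB it fell at low dose (log2 fold change -1.12, SE 0.140, edgeR adjusted p = 1.42e-05) and at high dose (-1.12, SE 0.146, adjusted p = 0.000115). The differences between doses were -0.05 for SB4 and 0.00 for TGFB on the log2 scale, neither of which passed the test. High Wnt was below low Wnt (log2 fold change -1.39, SE 0.141, edgeR adjusted p = 5.53e-07), and below hESC (-2.07, SE 0.144, adjusted p = 1.63e-09), as was low Wnt + TGFB (-1.80, SE 0.142, adjusted p = 2.07e-08).

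SLC2A3 encodes GLUT3, the high-affinity glucose carrier best known from neurons and also expressed by pluripotent cells (chr12:7919228-7936296, minus strand, hg38). Its levels were 207 and 192 CPM in high Wnt + TGFB, 323 and 249 CPM in high Wnt + SB4, and 377 and 313 CPM in high Wnt. The low dose groups held 1144 and 1402 CPM in low Wnt + TGFB, 247 and 228 CPM in low Wnt + SB4, 527 and 602 CPM in low Wnt, against 874 and 855 CPM in hESC. In the low dose groups the order of the additives was thus the reverse of that for SLC2A1, and the libraries did not overlap. Low Wnt + TGFB lay above every other group, hESC included.

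At low dose, SLC2A3 rose 2.26-fold with TGFB (log2 fold change 1.17, SE 0.132, edgeR adjusted p = 4.7e-06) and fell with SB4 (-1.25, SE 0.133, adjusted p = 9.76e-06). At high dose it fell with TGFB (-0.79, SE 0.133, edgeR adjusted p = 0.00112), and with SB4 it differed by -0.27, which did not pass (adjusted p = 0.157). The difference between doses was -1.97 for TGFB (SE 0.187, edgeR adjusted p = 2.12e-06) and 0.98 for SB4 (SE 0.186, adjusted p = 0.0035), both past the test. SLC2A3 in low Wnt + TGFB exceeded hESC (log2 fold change 0.56, SE 0.130, edgeR adjusted p = 0.00139), while high Wnt was below low Wnt (-0.71, SE 0.132, adjusted p = 0.000379).

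Reads of SLC2A3 are uncertain because SLC2A14 is a near-identical copy, and reads that map to both were not counted. SLC2A14 itself stood at 2.33 to 17.98 CPM in all 14 libraries and changed in the same directions, with log2 differences of 1.40 with TGFB at low dose (SE 0.179, edgeR adjusted p = 1.9e-05) and -0.82 with SB4 at low dose (SE 0.195, adjusted p = 0.011). The pluripotency markers moved with SLC2A3 at low dose, at 1454 and 1580 CPM with TGFB and 326 and 321 CPM with SB4, against 556 and 621 CPM without additive. Neural progenitor markers were at 84.9 and 85.7 CPM with TGFB and 538 and 605 CPM with SB4, against 329 and 310.5 CPM without additive. Their part in the transporter results was not tested.

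The lactate and pyruvate carriers moved differently. SLC16A1 (MCT1), the carrier that exchanges lactate and pyruvate in most tissues, had 334 and 369 CPM in high Wnt + TGFB, 296 and 300.1 CPM in high Wnt + SB4, and 374 and 384 CPM in high Wnt. At the lower dose it had 528 and 573 CPM in low Wnt + TGFB, 325 and 374 CPM in low Wnt + SB4, 351 and 401 CPM in low Wnt, against 822 and 714 CPM in hESC. It was highest in hESC and next highest in low Wnt + TGFB, and no library of those groups overlapped with another group. SLC16A1 rose with TGFB at low dose (log2 fold change 0.55, SE 0.104, edgeR adjusted p = 0.000869), and the TGFB difference between doses was -0.66 (SE 0.148, adjusted p = 0.00688).

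SLC16A3 (MCT4), the lactate exporter of strongly glycolytic cells, rose over hESC in all 3 comparisons. It had 48.7 and 47.1 CPM in high Wnt + TGFB, 45.9 and 37.5 CPM in high Wnt + SB4, and 56.6 and 46.3 CPM in high Wnt. In the low dose groups there were 21.98 and 30.9 CPM in low Wnt + TGFB, 26.0 and 24.0 CPM in low Wnt + SB4, 33.1 and 29.6 CPM in low Wnt, against 17.6 and 21.3 CPM in hESC. All high Wnt libraries lay above all low Wnt libraries, and all low Wnt libraries above both of hESC. The rise over hESC was 2.65-fold in high Wnt (log2 fold change 1.40, SE 0.167, edgeR adjusted p = 1.03e-06) and 1.61-fold in low Wnt (0.69, SE 0.168, adjusted p = 0.00149), and high Wnt exceeded low Wnt (0.71, SE 0.159, adjusted p = 0.00181). In low Wnt + TGFB it was 1.36-fold above hESC (edgeR adjusted p = 0.029), a call lost without replicate 2 of low Wnt + TGFB (adjusted p = 0.422), without replicate 1 of hESC (0.149) and when only these groups were fitted (0.0535).

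**Figure D2:**
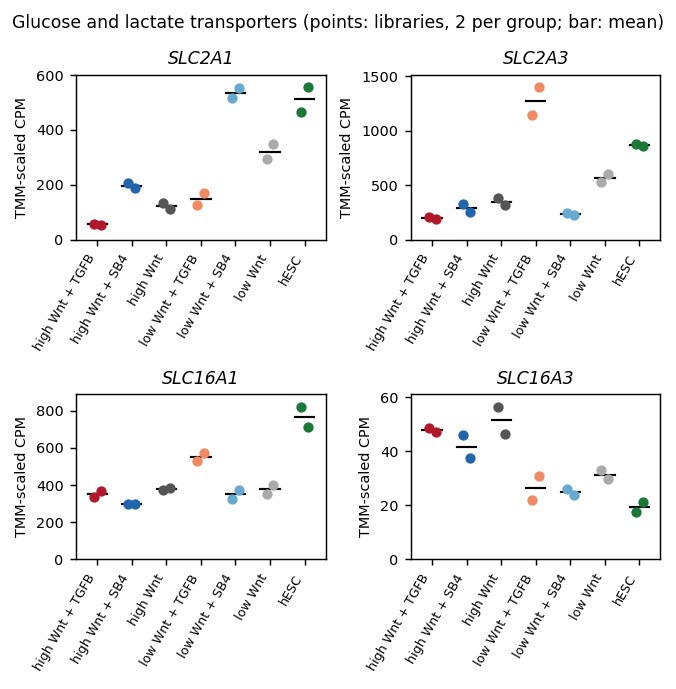
TMM-scaled CPM (vertical axes, from 0) of the glucose transporters SLC2A1 and SLC2A3 and the lactate transporters SLC16A1 and SLC16A3 in the 7 groups (horizontal axes), with a point per library and a bar at the mean. SLC2A1 is highest in low Wnt + SB4 (518 and 553 CPM) and SLC2A3 in low Wnt + TGFB (1144 and 1402 CPM).

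Hexokinase, which traps glucose in the cell, has 2 genes in the list, and in high Wnt against low Wnt HK1 rose and HK2 fell. HK1, the constitutive mitochondria-bound form (chr10:69270000-69401881, plus strand, hg38), had 134 and 128 CPM in high Wnt + TGFB, 109 and 103 CPM in high Wnt + SB4, and 142 and 119.7 CPM in high Wnt. At low dose there were 151 and 167 CPM in low Wnt + TGFB, 87.4 and 80.6 CPM in low Wnt + SB4, 88.4 and 96.3 CPM in low Wnt, against 566 and 588 CPM in hESC. Every induced library was under a level of 168 CPM, far below both hESC libraries. HK1 had the lowest log2 fold change of the list in low Wnt against hESC (-2.64, SE 0.106, edgeR adjusted p = 2.32e-12), and it also fell in high Wnt (-2.14, SE 0.104, adjusted p = 1.99e-11) and low Wnt + TGFB (-1.86, SE 0.103, adjusted p = 3.33e-10). With TGFB at low dose it was 1.73 times the level without (log2 fold change 0.79, SE 0.102, edgeR adjusted p = 2.22e-05), and the difference between doses passed (-0.79, SE 0.145, adjusted p = 0.00148).

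HK2, the inducible hexokinase typical of muscle and of proliferating cells (chr2:74832655-74893354, plus strand, hg38), had 25.4 and 19.3 CPM in high Wnt + TGFB, 86.4 and 62.7 CPM in high Wnt + SB4, and 37.3 and 22.4 CPM in high Wnt. The low dose groups held 49.4 and 52.6 CPM in low Wnt + TGFB, 106 and 95.1 CPM in low Wnt + SB4, 78.6 and 77.8 CPM in low Wnt, against 180.3 and 158 CPM in hESC. As with SLC2A1, the group means at each dose were ordered SB4, no additive, TGFB, though the libraries of high Wnt + TGFB and high Wnt overlapped. HK2 was the most reduced member in high Wnt against hESC (log2 fold change -2.51, SE 0.196, edgeR adjusted p = 6.33e-09) and against low Wnt (-1.40, SE 0.193, adjusted p = 1.91e-05), and fell in low Wnt + TGFB against hESC (-1.73, SE 0.186, adjusted p = 7.03e-07).

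With SB4, HK2 rose 2.51-fold at high dose (log2 fold change 1.33, SE 0.193, edgeR adjusted p = 0.000125), whereas at low dose the difference of 0.36 did not pass (adjusted p = 0.228). The SB4 effect differed between doses by 0.96 (SE 0.263, edgeR adjusted p = 0.038). That call was lost with only the 4 groups fitted (adjusted p = 0.0575) and without replicate 2 of high Wnt (0.169), replicate 1 of high Wnt + SB4 (0.198) or any low Wnt or low Wnt + SB4 library. With TGFB at low dose HK2 fell (log2 fold change -0.62, SE 0.184, edgeR adjusted p = 0.0209), but the adjusted p was between 0.0685 and 0.108 without any 1 of the 4 libraries compared.

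Of the 3 genes for phosphofructokinase, the committing step of glycolysis, PFKP changed most. PFKP, the platelet-type subunit (chr10:3067520-3136805, plus strand, hg38), had 51.0 and 45.2 CPM in high Wnt + TGFB, 22.9 and 18.6 CPM in high Wnt + SB4, and 46.4 and 43.0 CPM in high Wnt. At the lower dose it had 77.1 and 93.0 CPM in low Wnt + TGFB, 53.3 and 51.6 CPM in low Wnt + SB4, 66.4 and 68.8 CPM in low Wnt, against 209 and 255 CPM in hESC. The hESC libraries stood above all others and the high Wnt + SB4 libraries below all others. PFKP fell in low Wnt (log2 fold change -1.78, SE 0.126, edgeR adjusted p = 2.51e-09), in high Wnt (-2.38, SE 0.131, adjusted p = 8.86e-11) and in low Wnt + TGFB (-1.45, SE 0.125, adjusted p = 5.7e-08), each against hESC.

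With SB4 at high dose PFKP fell (log2 fold change -1.11, SE 0.137, edgeR adjusted p = 2.79e-05), and the difference from its SB4 response at low dose was -0.74 (SE 0.186, adjusted p = 0.0234). The call on that difference was lost without replicate 1 of high Wnt (adjusted p = 0.0891), replicate 2 of high Wnt + SB4 (0.13) or any of the 4 low Wnt and low Wnt + SB4 libraries (0.0586 to 0.0799). PFKL, the liver-type subunit, ran from 162 to 214 CPM over the 14 libraries and was called in no comparison. PFKM, the muscle-type subunit, had 180.3 and 176 CPM in low Wnt against 144 and 145 CPM in hESC (log2 fold change 0.30, SE 0.0917, edgeR adjusted p = 0.00753). In high Wnt PFKM had 177 and 173 CPM (log2 fold change 0.28, SE 0.0920, edgeR adjusted p = 0.0117), a call lost with only these groups fitted (0.0732) and without replicate 1 of high Wnt (0.0546).

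The other genes of upper glycolysis followed the general decline. GPI, which isomerises glucose-6-phosphate, and ALDOC, the brain-type aldolase, fell in all 3 comparisons with hESC, with GPI at 166 to 274 CPM in induced libraries and 355 and 399 CPM in hESC, and ALDOC at 23.3 to 40.1 CPM and 65.1 and 81.8 CPM. PFKFB3, which makes the activator of phosphofructokinase, also fell in all 3, to 35.7 to 63.2 CPM in induced libraries against 68.0 and 74.1 CPM in hESC. GPI is annotated on an alternate contig as well, so reads of it may be lost.

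ALDOA, the main aldolase, and TPI1, triose phosphate isomerase, depended on the dose. In high Wnt ALDOA had 1301 and 1077 CPM, against 754 and 796 CPM in low Wnt and 1119 and 1502 CPM in hESC, so that high Wnt overlapped with hESC and low Wnt did not. In high Wnt TPI1 had 1003 and 838 CPM, against 620.1 and 633 CPM in low Wnt and 901 and 1126 CPM in hESC, with the same pattern. High Wnt was 1.53-fold above low Wnt for ALDOA (log2 fold change 0.62, SE 0.132, edgeR adjusted p = 0.00131) and 1.47-fold for TPI1 (0.55, SE 0.111, adjusted p = 0.000765). With SB4 at high dose ALDOA fell to 898 and 762 CPM (log2 fold change -0.52, SE 0.132, edgeR adjusted p = 0.00974), a call lost without replicate 1 of high Wnt (0.124) or replicate 2 of high Wnt + SB4 (0.11).

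**Figure D3:**
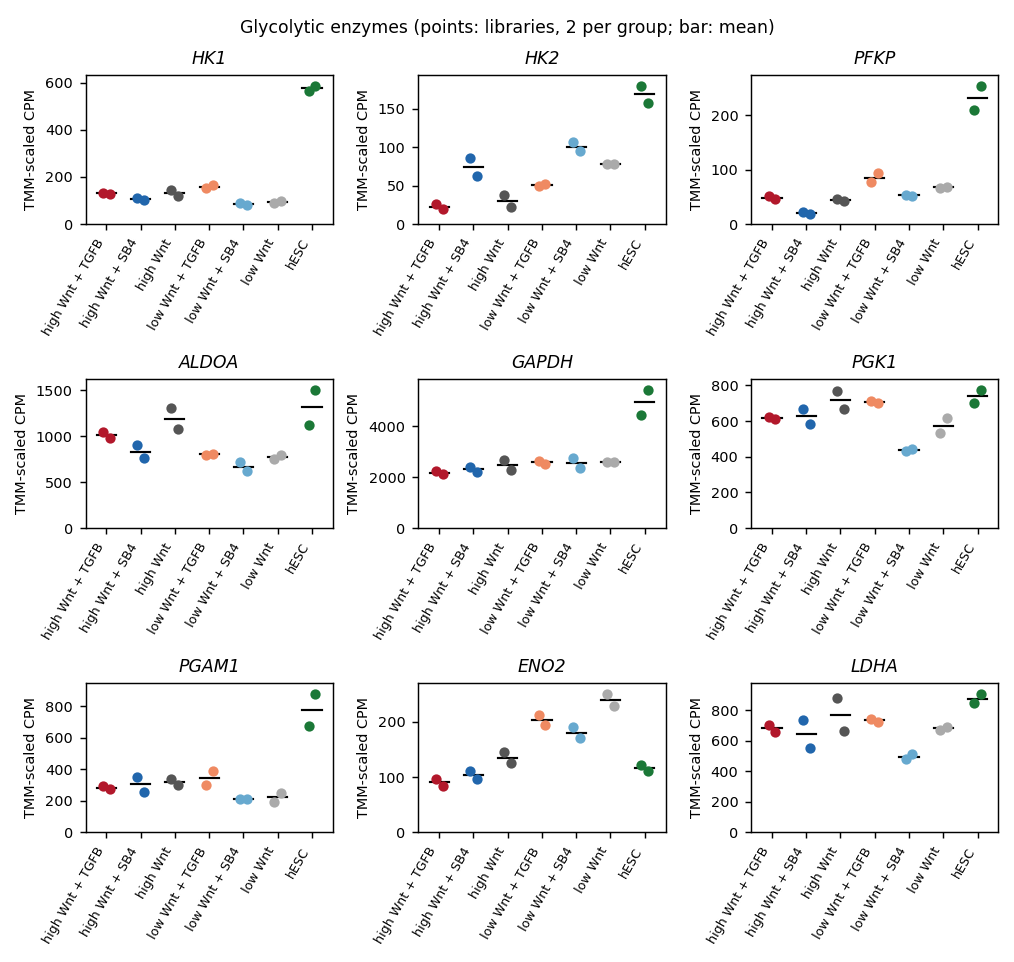
TMM-scaled CPM (vertical axes, from 0) of 9 glycolytic enzymes in the 7 groups (horizontal axes), with a point per library and a bar at the mean. HK1, PFKP, GAPDH and PGAM1 stand apart in hESC, ENO2 is highest in low Wnt (250.02 and 229 CPM), and PGK1 and LDHA are lowest in low Wnt + SB4 (435 and 441 CPM, 480.2 and 514 CPM).

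In the lower part of glycolysis, PGAM1 fell most on induction. PGAM1, the phosphoglycerate mutase, had 196 and 249 CPM in low Wnt and 339 and 300.2 CPM in high Wnt, against 678 and 879 CPM in hESC. It fell in low Wnt against hESC with a log2 fold change of -1.81 (SE 0.165, edgeR adjusted p = 5e-08), second only to HK1 in the list. With TGFB at low dose PGAM1 was at 303 and 387 CPM (log2 fold change 0.64 over low Wnt, SE 0.161, edgeR adjusted p = 0.00775), a call lost without replicate 1 of low Wnt (0.108) or replicate 2 of low Wnt + TGFB (0.124). GAPDH, glyceraldehyde-3-phosphate dehydrogenase, was at 2142 to 2735 CPM in the induced libraries against 4449 and 5425 CPM in hESC, and fell in all 3 comparisons with hESC. ENO1, the main enolase, PKM, pyruvate kinase, and LDHB, the heart-type lactate dehydrogenase, also fell in all 3, ENO1 to 1562 to 2213 CPM in induced libraries against 2880 and 3668 CPM in hESC.

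Counts of several of these genes are less certain than their depth implies. Of the 35 members, 15 have at least 1 pseudogene of their name in GENCODE release 29, with 62 for GAPDH, 13 for PGAM1, 6 for LDHA and 5 for PKM, and reads shared with such copies were not counted. No member overlaps another annotated gene on its own strand.

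ENO2, the enolase of neurons, was the lower glycolysis gene that rose on induction at low dose. It had 96.8 and 84.6 CPM in high Wnt + TGFB, 111 and 97.2 CPM in high Wnt + SB4, and 145 and 125 CPM in high Wnt. In the low dose groups there were 212 and 194 CPM in low Wnt + TGFB, 191 and 170.0 CPM in low Wnt + SB4, 250.02 and 229 CPM in low Wnt, against 121 and 110.3 CPM in hESC. At each dose the cultures with no additive were the highest. ENO2 rose in low Wnt against hESC (log2 fold change 1.05, SE 0.113, edgeR adjusted p = 3.76e-07) and in low Wnt + TGFB (0.81, SE 0.113, adjusted p = 1.19e-05), and high Wnt was below low Wnt (-0.83, SE 0.112, adjusted p = 1.62e-05). It fell with TGFB at high dose (log2 fold change -0.58, SE 0.114, edgeR adjusted p = 0.00435), a call lost without replicate 1 of high Wnt (0.0788) or replicate 2 of high Wnt + TGFB (0.0868). With SB4 at high dose it fell too (-0.38, SE 0.113, edgeR adjusted p = 0.0246), a call lost with library totals alone (0.0528) and without replicate 1 of high Wnt (0.226) or replicate 2 of high Wnt + SB4 (0.196).

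With SB4 at low dose, PGK1, LDHA and ENO2 fell along with SLC2A3. PGK1, phosphoglycerate kinase, had 435 and 441 CPM in low Wnt + SB4 and 530.5 and 616 CPM in low Wnt (log2 fold change -0.39, SE 0.102, edgeR adjusted p = 0.0206). LDHA, the muscle-type lactate dehydrogenase that favours lactate formation, had 480.2 and 514 CPM in low Wnt + SB4 and 673 and 690 CPM in low Wnt (log2 fold change -0.46, SE 0.131, edgeR adjusted p = 0.0327). ENO2 differed by -0.41 (SE 0.111, edgeR adjusted p = 0.0237). In each of the 3 genes the libraries of the groups did not overlap.

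These 3 calls depend on single libraries. LDHA lost its call without any 1 of the 4 libraries compared (adjusted p of 0.104 to 0.189). PGK1 lost it without replicate 2 of low Wnt (0.238) or either library of low Wnt + SB4 (0.12 and 0.117), and ENO2 without replicate 1 (0.181) or 2 (0.0575) of low Wnt or replicate 2 of low Wnt + SB4 (0.231). With TGFB at low dose PGK1 was at 710.1 and 702 CPM, above both low Wnt libraries, and the TGFB difference between doses was -0.52 (SE 0.145, edgeR adjusted p = 0.0274). The call on that difference was lost without replicate 1 of high Wnt (0.122) or of low Wnt (0.139), either library of high Wnt + TGFB (0.0743 and 0.077) or either of low Wnt + TGFB (0.0562 and 0.0707).

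The promoters of these genes are shown because ACGTG is the usual form of the core motif that hypoxia-inducible factor binds, and were chosen for display, after their values were seen, from the 6 members that moved with SB4 at low dose. Of the other 2, SLC2A3 had no entry in the promoter table, and IDH2, which rose, had 1 listed window with 0 matches and is not shown. Each sequence is the 250 bases before the start listed by RefSeq (GRCh38.p14), read in the direction of the gene, with capitals marking ACGTG on either strand, so that its reverse complement CACGT and the palindrome CACGTG are also in capitals. LDHA at chr11:18394313-18394562 and PGK1 at chrX:78103998-78104247 lie on the plus strand, as does ENO2 at chr12:6914330-6914579. SLC2A1, which rose with SB4, has its window on the minus strand at chr1:42958869-42959118. The annotation used for the counts has other starts. By it the SLC2A1 window lies inside the gene, which starts at 42959176. The LDHA, PGK1 and ENO2 windows run past the starts it gives, at 18394389, 78104169 and 6914450.
LDHA: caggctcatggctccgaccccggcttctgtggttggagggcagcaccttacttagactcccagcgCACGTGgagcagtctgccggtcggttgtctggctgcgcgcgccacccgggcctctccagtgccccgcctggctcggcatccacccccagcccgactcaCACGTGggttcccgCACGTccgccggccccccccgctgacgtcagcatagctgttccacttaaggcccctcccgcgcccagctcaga
PGK1: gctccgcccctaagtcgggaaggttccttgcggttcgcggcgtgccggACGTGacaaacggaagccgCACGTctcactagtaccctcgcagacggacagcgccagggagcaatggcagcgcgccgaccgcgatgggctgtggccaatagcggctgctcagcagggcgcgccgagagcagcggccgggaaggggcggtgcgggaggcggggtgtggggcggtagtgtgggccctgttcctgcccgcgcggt
ENO2: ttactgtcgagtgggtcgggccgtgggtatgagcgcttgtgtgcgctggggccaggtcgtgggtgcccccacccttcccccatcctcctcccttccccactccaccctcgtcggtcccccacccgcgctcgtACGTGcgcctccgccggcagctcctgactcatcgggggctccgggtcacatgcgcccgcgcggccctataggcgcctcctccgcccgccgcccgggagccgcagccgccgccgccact
SLC2A1: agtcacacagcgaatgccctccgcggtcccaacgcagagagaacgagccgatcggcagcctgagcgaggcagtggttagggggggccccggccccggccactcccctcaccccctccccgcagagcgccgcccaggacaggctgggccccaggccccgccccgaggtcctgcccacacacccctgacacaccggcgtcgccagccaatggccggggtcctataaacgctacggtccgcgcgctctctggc

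In these windows ACGTG matched 5 times in LDHA, counting both strands and with each of its 2 CACGTG palindromes matching on both. It matched 2 times in PGK1, 1 time in ENO2 and 0 times in SLC2A1, and 0 times in the second window listed for LDHA, not shown. Over all members with a listed promoter (32 of 35 matched, and SLC2A3, SLC16A1 and OGDH did not), 16 had the motif in at least 1 window. Members had up to 7 windows each, and this count was not taken over all genes, so it cannot be set against the shares by window. By window the motif was in 19 of 60 (31.7%), against 6501 of 35116 windows of all genes (18.5%), while the median GC content was 68.4% in the members' windows and 58.0% in all. CACGTG, which contains ACGTG, was in 7 of the 60 windows (11.7%) and 6.34% of all. A match is a string of letters and not a binding site.

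Levels of different genes were compared per length, in transcripts-per-million (TPM). The share of SLC2A1 in the summed TPM of SLC2A1 and SLC2A3 moved most, at 70.7% in low Wnt + SB4, 10.97% in low Wnt + TGFB, and 37.8% in low Wnt (means of 2 libraries). At high dose it was 42.7% with SB4, 23.2% with TGFB and 27.5% without additive, and in hESC it was 38.8%. The libraries of a group lay close together, the widest apart being those of hESC at 36.4% and 41.1%. HK2 made up 42.0% of hexokinase TPM in low Wnt + SB4, 33.9% in low Wnt, 29.6% in high Wnt + SB4 and 9.34% to 16.2% in the other 4 groups.

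Among the phosphofructokinases, PFKP was the smallest part in every induced library and the largest in both of hESC. It supplied 7.04% and 6.42% in high Wnt + SB4, where PFKL reached 51.1% and 51.2%, and 44.8% and 46.2% in hESC. ENO2 supplied 17.7% and 15.3% of enolase TPM in low Wnt, 8.09% and 8.32% in high Wnt, and 5.35% and 3.88% in hESC. SLC16A3 supplied 20.3% to 20.8% of the summed TPM of both lactate carriers in the 3 high Wnt groups, 8.23% to 13.6% in the 3 low Wnt groups and 4.59% in hESC. LDHA was 19.01% and 18.8% of lactate dehydrogenase TPM in low Wnt + SB4 and between 21.1% and 29.2% in every other library. ALDOA remained at 89.8% or more of aldolase TPM throughout, and PDK1 at 57.2% to 73.5% of the summed TPM of PDK1 and PDK3, where the libraries of high Wnt + SB4 alone held 73.5% and 63.9%.

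**Figure D4:**
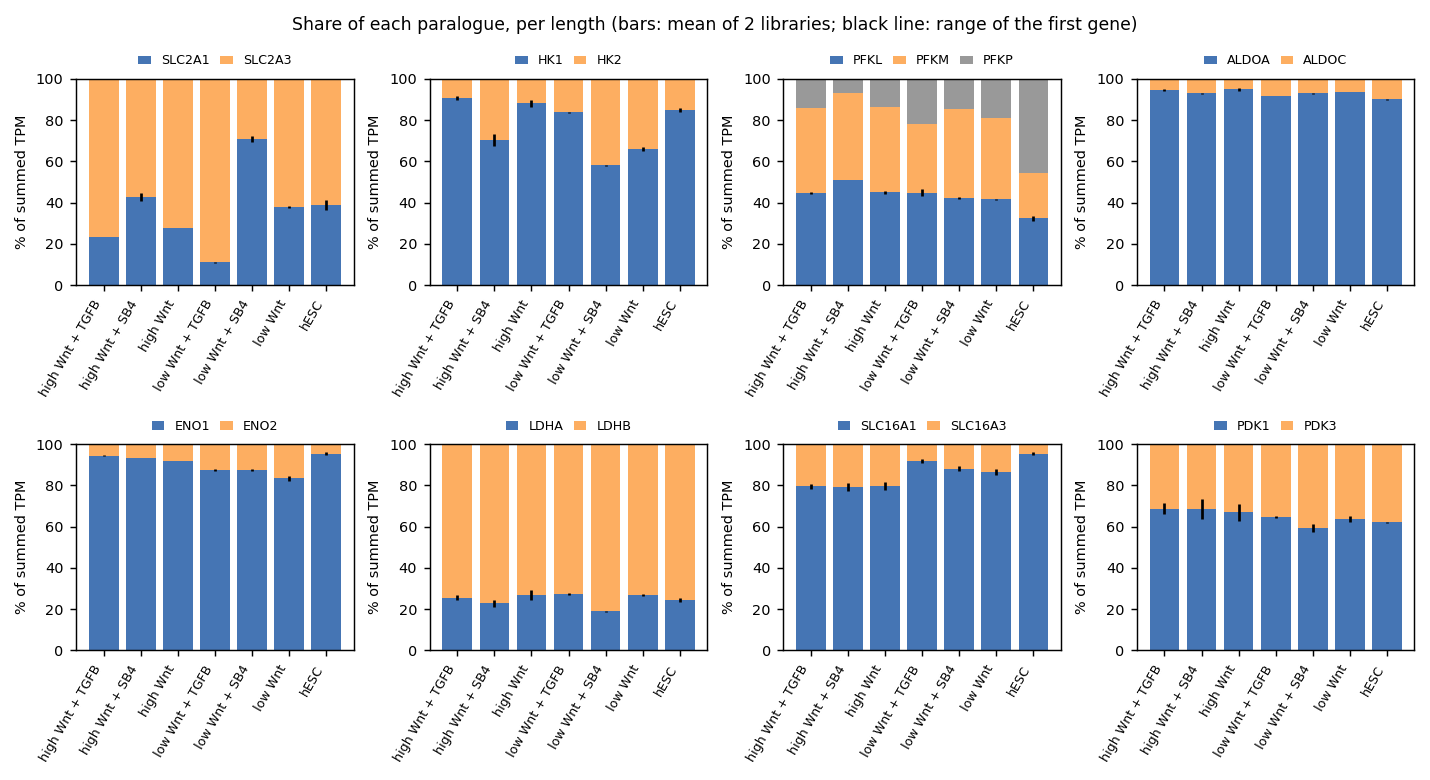
Share of each gene in the summed TPM of its paralogues (vertical axes, percent) in the 7 groups (horizontal axes), as means of 2 libraries, with a black line for the range of the gene at the bottom of each bar. The SLC2A1 share runs from 10.97% in low Wnt + TGFB to 70.7% in low Wnt + SB4, and that of PFKP (grey) from 6.73% to 21.9% in the induced groups, against 45.5% in hESC.

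Of the genes of pyruvate entry, PDK1 and PDK3, kinases that switch off pyruvate dehydrogenase, were called in no comparison and stayed between 28.8 and 45.9 CPM and between 34.0 and 51.2 CPM. PDHA1, the alpha subunit of pyruvate dehydrogenase, was at 85.2 to 98.1 CPM in induced libraries against 108 and 115 CPM in hESC. PDHB, the beta subunit, had 69.6 and 69.3 CPM in high Wnt + SB4 and 100.1 and 95.7 CPM in high Wnt (log2 fold change -0.50, SE 0.102, edgeR adjusted p = 0.00232), lower than in any other group. In hESC PDHB was at 159.7 and 136 CPM.

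MPC1 and MPC2, which together form the mitochondrial pyruvate carrier, rose in high Wnt against low Wnt. MPC1 had 9.68 and 11.7 CPM in high Wnt + TGFB, 13.2 and 10.3 CPM in high Wnt + SB4, and 10.1 and 8.25 CPM in high Wnt. At low dose there were 4.27 and 3.51 CPM in low Wnt + TGFB, 8.05 and 9.22 CPM in low Wnt + SB4, 6.15 and 4.96 CPM in low Wnt, against 8.96 and 10.1 CPM in hESC. High Wnt exceeded low Wnt 1.64-fold (log2 fold change 0.72, SE 0.209, edgeR adjusted p = 0.0119), a call lost without replicate 1 of high Wnt (0.114) or replicate 2 of low Wnt (0.113). MPC2 had 21.3 and 25.5 CPM in low Wnt + TGFB and 27.3 and 26.1 CPM in low Wnt, against 38.9 and 39.3 CPM in hESC. Both genes fell in low Wnt and in low Wnt + TGFB against hESC, and neither passed in high Wnt against hESC.

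Within the TCA cycle, IDH3A, MDH2 and OGDH fell in every group compared with hESC, and IDH2 rose in low Wnt and high Wnt. IDH3A, a subunit of the NAD-linked isocitrate dehydrogenase, had 9.14 to 16.2 CPM in induced libraries against 32.4 and 34.8 CPM in hESC. Its log2 fold change was -1.53 in low Wnt against hESC (SE 0.173, edgeR adjusted p = 6.53e-07). MDH2, the mitochondrial malate dehydrogenase, had 118 to 155 CPM in induced libraries against 283 and 345 CPM in hESC. For IDH3A and MDH2 the induced and hESC libraries were far apart and the induced groups lay close together.

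IDH2, the NADP-linked mitochondrial isocitrate dehydrogenase (chr15:90083980-90102554, minus strand, hg38), had 136 and 135 CPM in high Wnt + TGFB, 177 and 172 CPM in high Wnt + SB4, and 153 and 143 CPM in high Wnt. The low dose groups held 86.4 and 95.5 CPM in low Wnt + TGFB, 189 and 192 CPM in low Wnt + SB4, 139 and 148 CPM in low Wnt, against 83.8 and 104 CPM in hESC. The low Wnt + TGFB libraries lay within the hESC range and all other induced libraries above it. IDH2 rose in low Wnt (log2 fold change 0.62, SE 0.104, edgeR adjusted p = 5.69e-05) and high Wnt (0.66, SE 0.105, adjusted p = 2.89e-05) against hESC. At low dose it fell with TGFB (log2 fold change -0.66, SE 0.104, edgeR adjusted p = 0.00016) and rose with SB4 (0.41, SE 0.102, adjusted p = 0.0155), though the rise was lost without any 1 of the 4 libraries compared (adjusted p of 0.0579 to 0.139). The TGFB effect differed between doses by 0.54 (SE 0.147, edgeR adjusted p = 0.0234), a call lost without 5 of the 8 libraries in turn, replicate 2 of high Wnt (0.106) among them.

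OGDH, a subunit of the oxoglutarate dehydrogenase complex, also fell in high Wnt against low Wnt. It had 72.8 and 74.5 CPM in high Wnt + TGFB, 111 and 115 CPM in high Wnt + SB4, and 67.7 and 72.4 CPM in high Wnt. At the lower dose it had 106 and 107 CPM in low Wnt + TGFB, 117 and 116 CPM in low Wnt + SB4, 95.1 and 105 CPM in low Wnt, against 152 and 175 CPM in hESC. With SB4 at high dose it rose 1.61-fold (log2 fold change 0.69, SE 0.0966, edgeR adjusted p = 8.9e-05), into the range of the low dose groups.

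SDHA, the flavoprotein subunit of succinate dehydrogenase, was at 128 to 157 CPM in the 3 high Wnt groups, at 90.2 to 117 CPM in the 3 low Wnt groups, and at 105 and 119 CPM in hESC. It rose in high Wnt against hESC (log2 fold change 0.49, SE 0.101, edgeR adjusted p = 0.000365). CS, citrate synthase, had 189 and 180.5 CPM in low Wnt + TGFB against 225 and 238 CPM in low Wnt (log2 fold change -0.33, SE 0.0888, edgeR adjusted p = 0.0123), a call lost with library totals alone (0.0513) and without replicate 2 of low Wnt (0.0992) or either library of low Wnt + TGFB (0.0526 and 0.108). FH, fumarase, was also lowest there, at 85.4 and 70.0 CPM, and fell against hESC (103 and 109 CPM) in low Wnt + TGFB, its single call. In that group 6 of the 7 TCA cycle genes fell against hESC and IDH2 did not pass, where 31.8% of all genes were lower.

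**Figure D5:**
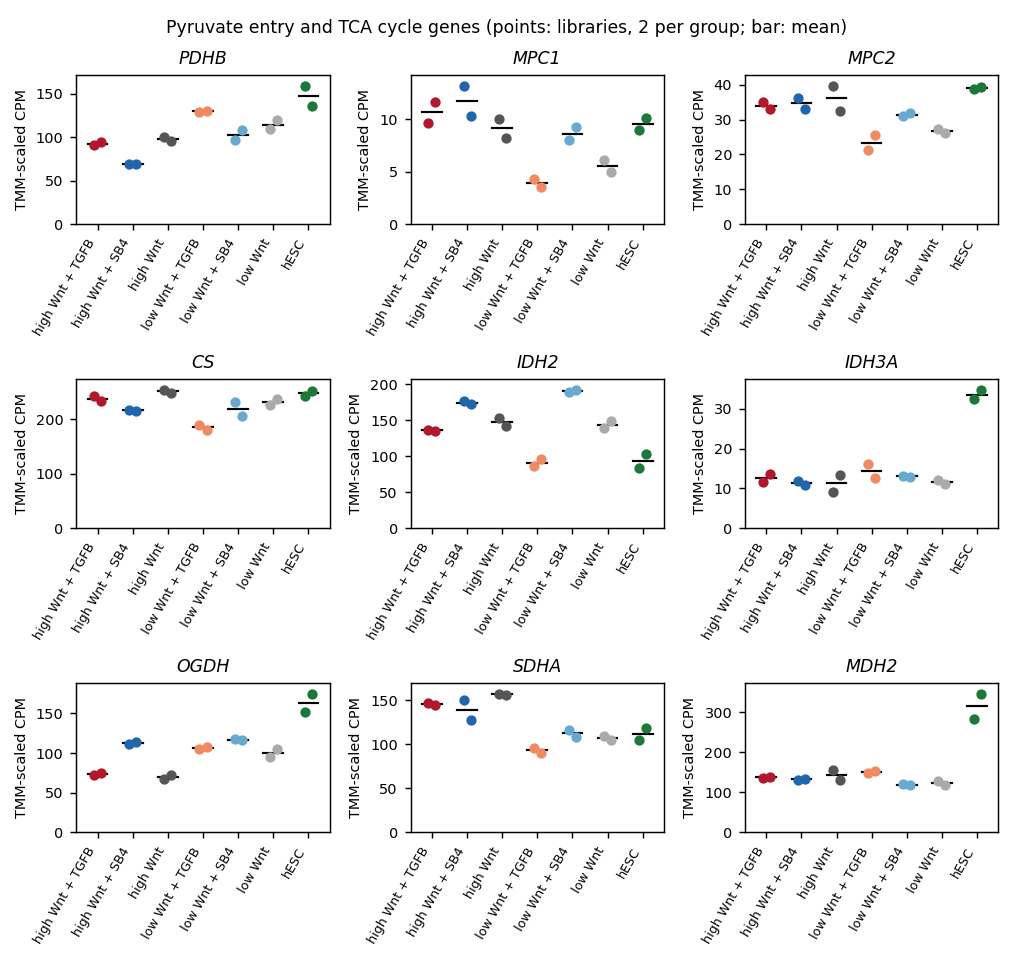
TMM-scaled CPM (vertical axes, from 0) of 9 genes of pyruvate entry and the TCA cycle in the 7 groups (horizontal axes), with a point per library and a bar at the mean. MDH2 and IDH3A stand apart in hESC, MPC1, CS and SDHA are lowest in low Wnt + TGFB, and OGDH in high Wnt + SB4 (111 and 115 CPM) lies with the low dose groups.

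Genes of neighbouring pathways mostly fell on induction as well. The shares of all genes to set their counts against were 35.6% lower and 35.8% higher in low Wnt, and 36.1% lower and 36.3% higher in high Wnt, each against hESC. Of 22 other genes of glycolysis and glucose transport that could be tested, 12 fell and 7 rose in low Wnt and likewise 12 and 7 in high Wnt, against hESC. Of 65 tested subunits of oxidative phosphorylation, 50 fell and 2 rose in low Wnt against hESC (median log2 fold change -0.82), and 48 fell and 4 rose in high Wnt (median -0.62). COX5A, a subunit of cytochrome c oxidase, fell by 1.49 on the log2 scale in low Wnt (SE 0.119, edgeR adjusted p = 9.65e-09). Of 27 other genes of pyruvate and the TCA cycle, 20 fell and 3 rose in low Wnt, and 19 fell and 3 rose in high Wnt. Of 8 pentose phosphate genes 6 fell and none rose at either dose, led by TALDO1 (log2 fold change -1.80 in low Wnt, SE 0.116, edgeR adjusted p = 7.15e-10) and TKT (-1.78, SE 0.1205, adjusted p = 1.36e-09), enzymes that link that pathway to glycolysis. Of the 65 oxidative phosphorylation genes, 15 rose and 1 fell in high Wnt against low Wnt, where 19.4% of all genes were higher and 19.1% lower. With TGFB at low dose 6 rose, where 13.7% of all genes were higher. The share that rose is thus near that of all genes between doses, and below it with TGFB.

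Amino acid fuel genes fell too. Of 12 genes of glutamine and aspartate use, 10 fell and 1 rose in low Wnt, and 9 fell and 3 rose in high Wnt, against hESC. SLC7A5, the large neutral amino acid carrier, fell by 3.92 on the log2 scale in low Wnt (SE 0.192, edgeR adjusted p = 2.72e-11) and ASNS, asparagine synthetase, by 2.41 (SE 0.102, adjusted p = 4.25e-12).

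Targets of hypoxia-inducible factor outside glycolysis were divided on induction. With SB4 most of them did not pass, and all that passed were lower. Of 20 tested, 8 rose, 6 fell and 6 did not pass in low Wnt, and 9 rose, 3 fell and 8 did not pass in high Wnt, against hESC. Of all genes, 35.8% were higher and 35.6% lower in low Wnt, and 36.3% and 36.1% in high Wnt, so the low Wnt counts are near the share of all genes. In high Wnt against low Wnt, 13 rose, 2 fell and 5 did not pass, where 19.4% of all genes were higher and 19.1% lower. With SB4, 15 of the 20 did not pass at low dose and 12 did not at high dose, and those that passed were lower, 5 at low dose (6.39% of all genes lower) and 8 at high dose (11.6%). With TGFB 5 rose and 8 fell at low dose, where 13.7% of all genes were higher and 12.2% lower. At high dose 2 rose, 1 fell and 17 did not pass, where 3.75% of all genes were higher and 3.49% lower. P4HA1, a collagen prolyl hydroxylase, fell with SB4 at low dose (log2 fold change -0.71, SE 0.126, edgeR adjusted p = 0.00134), as did the peptide hormone gene ADM (-1.60, SE 0.321, adjusted p = 0.00351). With TGFB at low dose P4HA1 fell too (log2 fold change -0.99, SE 0.127, edgeR adjusted p = 1.94e-05), whereas ADM rose (3.15, SE 0.236, adjusted p = 4.6e-08). HIF1A, which encodes a regulated subunit of the factor, did not pass in low Wnt against hESC (log2 fold change -0.07, edgeR adjusted p = 0.581). It fell in high Wnt (-0.61, SE 0.114, adjusted p = 0.000134). EPAS1, which encodes another such subunit, fell in low Wnt (log2 fold change -3.71, SE 0.593, edgeR adjusted p = 3.09e-05) and in high Wnt (-4.08, SE 0.645, adjusted p = 2.52e-05), each against hESC.

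Of 23 regulators of fuel use, 9 fell, 8 rose and 6 did not pass in low Wnt, and 8 fell, 6 rose and 9 did not pass in high Wnt, against hESC. These shares are close to those of all genes in low Wnt (35.6% lower, 35.8% higher) and not above them in high Wnt (36.1% lower, 36.3% higher). Among those that fell, MYC had log2 fold changes of -1.66 in low Wnt (SE 0.133, edgeR adjusted p = 1.05e-08) and -2.25 in high Wnt (SE 0.139, adjusted p = 3.46e-10). LIN28A had -0.83 (SE 0.128, edgeR adjusted p = 2.08e-05) and -1.67 (SE 0.130, adjusted p = 6.69e-09) in turn. The thioredoxin-interacting protein gene TXNIP and its relative ARRDC4, which in mammals restrain glucose uptake and are induced by glucose metabolites, rose more than any member on induction. TXNIP had 1118 and 594 CPM in high Wnt + TGFB, 845 and 460 CPM in high Wnt + SB4, and 1217 and 691 CPM in high Wnt. In the low dose groups there were 649 and 307 CPM in low Wnt + TGFB, 726 and 495 CPM in low Wnt + SB4, 1334 and 807 CPM in low Wnt, against 24.8 and 21.4 CPM in hESC. Replicate 1 was above replicate 2 in every induced group, so the spread within groups was wide. The log2 fold change over hESC was 5.53 in low Wnt (SE 0.463, edgeR adjusted p = 1.76e-08) and 5.37 in high Wnt (SE 0.460, adjusted p = 2.02e-08).

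ARRDC4 had 206 and 187 CPM in high Wnt + TGFB, 148 and 124 CPM in high Wnt + SB4, and 251 and 238 CPM in high Wnt. At low dose there were 138 and 97.1 CPM in low Wnt + TGFB, 182 and 143 CPM in low Wnt + SB4, 322 and 278 CPM in low Wnt, against 10.4 and 8.15 CPM in hESC. At both doses the cultures with no additive were the highest. ARRDC4 rose over hESC by 5.00 on the log2 scale in low Wnt (SE 0.196, edgeR adjusted p = 1.69e-12) and 4.71 in high Wnt (SE 0.195, adjusted p = 2.86e-12). It fell with SB4 at low dose (log2 fold change -0.88, SE 0.154, edgeR adjusted p = 0.00109) and at high dose (-0.85, SE 0.155, adjusted p = 0.000942), and with TGFB at low dose (-1.35, SE 0.156, adjusted p = 6.2e-06).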

How the data were processed

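The values come from a table of raw gene counts that the authors deposited for 14 libraries of messenger RNA. Per the labels' protocols, a poly(A) selection and a strand-keeping kit were used. Per the submitters' processing notes, HISAT2 2.2.0, SAMtools 1.10, featureCounts 2.0.0 and bcl2fastq were used with hg38. Per the file headers, counts are read pairs on exons of the UCSC hg38 annotation with reverse strandedness, and neither multiply mapped reads nor reads on several genes were counted, so genes with near-identical copies can lose reads. The table also gives each gene's exonic length, per the file headers.

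In R 4.3.3, genes were filtered by filterByExpr, scaled by TMM and tested with edgeR 4.0.16 (glmQLFit, glmQLFTest) in 1 fit of all 14 libraries, with 7 residual degrees of freedom, a common biological coefficient of variation of 0.101 and Benjamini-Hochberg adjustment over 16149 genes. SE is the log2 fold change over the square root of F. The 10 contrasts are the 8 group comparisons and the high-minus-low-dose difference in the effect of SB4 and of TGFB. CPM use TMM-scaled totals, and TPM divide counts by length. The test was checked on simulated data. No replicate pair agreed within sampling noise (chi-square over its degrees of freedom was 5.53 to 15.0).

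The members, lists and tests were chosen with earlier results of these data known. In each contrast, up to 4 called members at either end of the log2 fold changes are named with their test, other members are given by levels, and of other lists up to 3 called genes of smallest p and any regulator may be named. Alternatives were DESeq2 1.42.0, RLE, upper quartile or no scaling beyond library totals, a fit of only the groups compared, no filter, a block for replicate number, shares without length correction, and leaving out each library. Promoters came from a RefSeq table (GRCh38.p14), and pseudogenes from GENCODE 29.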

Additional observations from a re-analysis of the deposited data

Results flagged for a closer look

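For 9 pairs of gene and additive the effect of the additive differed between the doses of CHIR99021 in edgeR's quasi-likelihood test of the difference itself, in which 6.07% of all genes were called for SB4 and 11.8% for TGFB. On the log2 scale, the SB4 effect at high dose minus that at low dose was -0.742 for PFKP, 0.9763 for SLC2A3 and 0.9638 for HK2. The TGFB effect at high dose minus that at low dose was -1.967 for SLC2A3, -0.8007 for PGAM1, -0.788 for HK1, -0.6565 for SLC16A1, -0.5154 for PGK1 and 0.537 for IDH2. PGAM1 lost its call without replicate 1 of high Wnt (adjusted p = 0.102), replicate 1 (0.0623) or 2 (0.0929) of high Wnt + TGFB, replicate 1 of low Wnt (0.132) or replicate 2 of low Wnt + TGFB (0.146). PGK1 lost its call without replicate 1 of high Wnt (0.122) or of low Wnt (0.139), or any library of high Wnt + TGFB or low Wnt + TGFB (0.0562 to 0.077). IDH2 lost its call without replicate 2 of high Wnt (0.106) or of low Wnt (0.0957), either library of high Wnt + TGFB (0.0865 and 0.0744) or replicate 1 of low Wnt + TGFB (0.11). Without either library of high Wnt + TGFB, 3 in place of 6 members were called for TGFB, and without any low Wnt or low Wnt + SB4 library, 1 in place of 3 for SB4.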

How the results depend on the processing

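No named member changed the sign of its fold change under any alternative. Apart from leaving out libraries, 68 of 70 counts of called members stayed within 1.5 times the main count. The exceptions were both for TGFB at low dose, with 14 members called with library totals alone and 14 with only the groups compared, in place of 9. Library totals alone turned the balance for SB4 at high dose, with 4 higher and 3 lower in place of 3 and 6. They also gave 6 higher and 22 lower in low Wnt + TGFB against hESC, where they moved the median of all genes to 0.187 on the log2 scale. Shares of counts without length correction changed the span between groups to 39.97 points for HK1, 15.68 for PFKL, 2.687 for ALDOA, 9.348 for ENO1, 10.46 for LDHA and 9.77 for SLC16A1, in place of 32.68, 18.83, 4.871, 11.88, 8.488 and 16.21. Of the named members, 443 results were unchanged in call and 5 lost it under settings other than leaving out a library, and 834 and 62 when 1 library was left out.

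Without 1 library the calls ran from 26 to 29 for low Wnt, 21 to 26 for high Wnt and 23 to 26 for low Wnt + TGFB, each against hESC, and 11 to 18 for high Wnt against low Wnt. They ran from 2 to 7 for SB4 and 6 to 13 for TGFB at low dose, 5 to 10 for SB4 and 2 to 4 for TGFB at high dose, and 1 to 4 and 3 to 7 for the SB4 and TGFB differences between doses. The span of the LDHA share ran from 8.088 to 10.34 points. Over all genes, replicate numbers paired the libraries weakly at most. Same-numbered libraries of 21 group pairs correlated at -0.116 to 0.206 (median 0.0566), and 5 exceeded 0.1. Single genes could still follow the replicate number, as TXNIP was higher in replicate 1 in every induced group. A block for replicate number raised the calls over all genes, to 1418 in place of 1170 for TGFB at high dose. With the replicate number as a block, 24 members were called in high Wnt against hESC, and 7 for SB4 and 10 for TGFB at low dose. The lowest count of a member in any library was 60, for MPC1, whose log2 fold change in high Wnt against low Wnt had an SE of 0.209.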
